A study of Mus musculus with 12 samples.

Results

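The 9 genes described here encode the enzymes of the pentose phosphate pathway and a cytosolic enzyme that makes NADPH alongside it. They are G6pdx, H6pd, Pgls, Pgd, Rpia, Rpe, Tkt, Taldo1 and Idh1, chosen by name from the 38924 genes of the deposited count table, and all 9 passed the filter on low counts that 14870 genes passed. Transcripts were measured by RNA sequencing of interscapular brown fat, the heat-producing depot between the shoulder blades, from 12 wild-type C57BL/6J mice. The mice were kept at 6 °C (severe cold, 4 mice), 22 °C (room temperature, 4 mice) or 30 °C (thermoneutral, 4 mice) for 4 weeks, beginning at 10 weeks of age, and were 14 weeks old at sampling. The groups differ in the labels only by ambient temperature. Each library is labelled as 1 mouse, and 2 columns of the table that carry the letter of the 30 °C titles but none of their numbers are called mice A and B, since which of the labelled mice they are is not known.

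The pentose phosphate pathway branches off glycolysis at glucose 6-phosphate. Its oxidative branch turns that sugar into ribulose 5-phosphate and reduces NADP+ to NADPH at each of its dehydrogenase steps, and its reversible non-oxidative branch shuffles pentose phosphates into sugars that re-enter glycolysis. NADPH is the electron donor for making fatty acids and sterols and for keeping glutathione and thioredoxin reduced, and brown fat in the cold both makes and burns fatty acids. Cytosolic isocitrate dehydrogenase and malic enzyme are further sources of NADPH in fat.

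Libraries held 18290162 to 32513051 counts, except 86438386 in 22 °C mouse 3. Levels are given as CPM, the read count of a gene relative to the library's total in the customary unit, with the totals scaled by TMM, a method that balances most genes between libraries. The 12 brown adipocyte markers examined were all detected, and their summed level was 24800 to 27200 CPM at 6 °C, 18000 to 20800 at 22 °C and 11400 to 13400 at 30 °C. Ucp1 and Fabp4 made up much of this sum. Ucp1 averaged 10440 CPM at 6 °C, 3373 at 22 °C and 1469 at 30 °C, and Fabp4 8876, 9719 and 5961 in the same order. The 13 macrophage markers summed to 281 to 575 CPM at 6 °C, 143 to 208 at 22 °C and 546 to 1910 at 30 °C, where mice A and B were highest, and the 8 fibroblast markers to 851 to 1060, 1050 to 1570 and 2700 to 5150 CPM in the same order of temperatures. Skeletal muscle markers were uneven within groups, with 11.5 to 1730 CPM at 6 °C, 877 to 3390 at 22 °C and 888 to 4830 at 30 °C. At 6 °C against 30 °C, 9 of the 12 brown adipocyte markers rose and 1, Adipoq, fell, beside 25.3% of all tested genes called higher and 31.5% called lower. Of the other markers, 9 of the 13 macrophage, 8 of the 8 fibroblast and 5 of the 8 endothelial markers fell. Of 8 T and natural killer cell markers 7 were tested, and all 7 fell. Their levels were low, with the 8 summing to 1.26 to 3.38 CPM at 6 °C and 9.45 to 17.4 at 30 °C. Of the 11 skeletal muscle and 5 erythrocyte markers 0 passed. The part of cell make-up in the changes below was not tested, and in bulk tissue fewer cells of a type cannot be told apart from less RNA per cell.

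The 9 genes together took up more of the transcriptome the colder the mice were kept. Before any scaling, their reads made up 0.717 to 0.954% of a library at 6 °C, 0.514 to 0.633% at 22 °C and 0.230 to 0.401% at 30 °C, and the ranges of the 3 temperatures did not overlap. Much of this share was Tkt, which alone made up 0.407 to 0.589% of a library at 6 °C, 0.311 to 0.398% at 22 °C and 0.111 to 0.257% at 30 °C. At 6 °C against 30 °C, 8 of the 9 rose and 1 fell (adjusted p under 0.05 over all tested genes in edgeR's quasi-likelihood fit), beside 25.3% of all tested genes called higher and 31.5% called lower in that comparison. Their median log2 fold change was 1.29, against -0.11 over all tested genes. At 22 °C against 30 °C, 7 of the 9 rose and 0 fell, beside 21.8% called higher and 22.8% called lower, with a median of 0.81 against -0.02. The alternatives tried gave 6 to 9 rises in that comparison, with 9 under DESeq2. At 6 °C against 22 °C, 4 rose and 1 fell, beside 16.9% called higher and 17.4% called lower, with a median of 0.33 against -0.03. The comparisons share libraries and are not independent of each other.

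**Figure D1:**
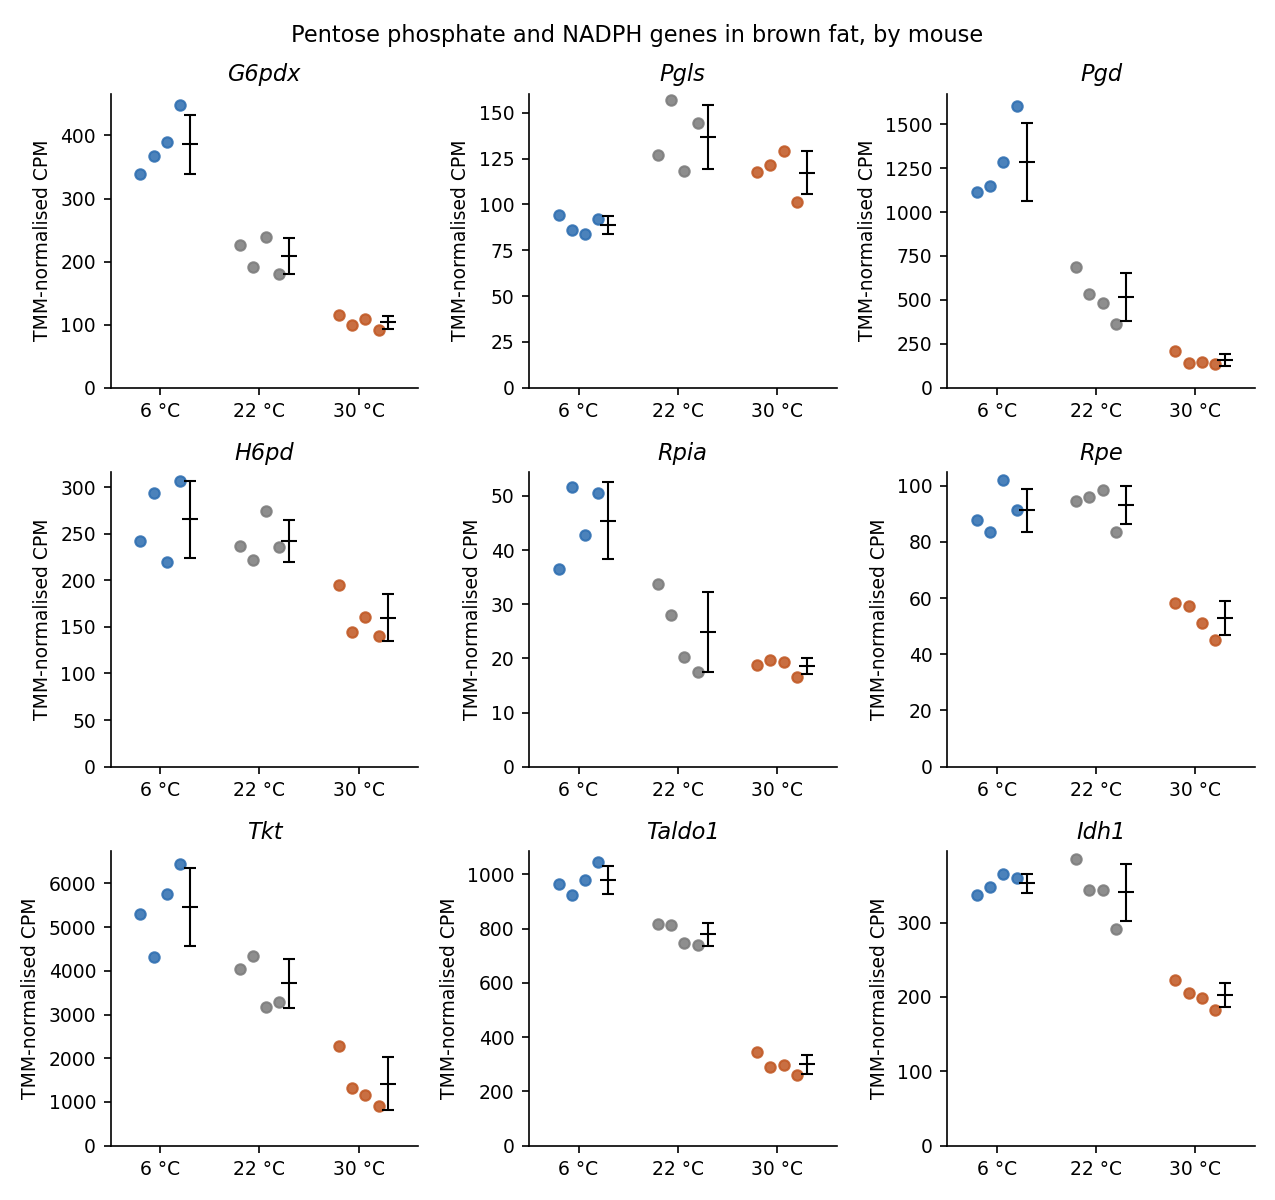
TMM-normalised CPM of each of the 9 genes (y axes, starting at 0) in the 4 mice at 6, 22 and 30 °C (points), with the mean and SD of each temperature beside them. Pgd shows the widest separation, with 1115 to 1601 CPM at 6 °C, 360.7 to 686 at 22 °C and 134.8 to 210.1 at 30 °C, and Pgls is the gene whose 6 °C values lie below those of both other temperatures.

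In the oxidative branch the first and the last enzyme rose at both colder temperatures and the middle one did not. G6pdx encodes glucose-6-phosphate dehydrogenase, which commits glucose 6-phosphate to the pathway and makes its first NADPH. It stood at 338.6, 367.8, 389.1 and 448.7 CPM in 6 °C mice 1 to 4, at 225.8, 190.9, 238.6 and 179.8 in 22 °C mice 1 to 4, and at 115.3, 99.7, 109.1 and 91.5 in 30 °C mice 1, 2, A and B. The 3 temperatures did not overlap and followed the order of the cold. In the quasi-likelihood test of edgeR, with p-values adjusted by the method of Benjamini and Hochberg, it rose 3.71-fold at 6 °C against 30 °C (log2 fold change 1.89, SE 0.12, adjusted p = 9.4e-08). It rose 2.01-fold at 22 °C against 30 °C (1.01, SE 0.11, adjusted p = 3.75e-05, edgeR) and 1.85-fold at 6 °C against 22 °C (0.89, SE 0.11, adjusted p = 1.35e-04).

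Pgd encodes 6-phosphogluconate dehydrogenase, which makes the second NADPH of the branch while releasing carbon dioxide, and it changed most among the 9 genes. It stood at 1115, 1149, 1283 and 1601 CPM in 6 °C mice 1 to 4, at 686, 535.6, 481.3 and 360.7 in 22 °C mice 1 to 4, and at 210.1, 141.4, 144.6 and 134.8 in 30 °C mice 1, 2, A and B. The groups did not overlap, the 22 °C mice were the most spread in proportion to their mean, and 30 °C mouse 1 lay above the rest of its group. Pgd rose 8.16-fold at 6 °C against 30 °C (log2 fold change 3.03, SE 0.21, adjusted p = 4.09e-07, edgeR), and 99.4% of all tested genes had a lower log2 fold change in that comparison. The log2 fold change was 1.71 (SE 0.20, adjusted p = 6.12e-05) at 22 °C against 30 °C and 1.32 (SE 0.20, adjusted p = 4.93e-04) at 6 °C against 22 °C, both called.

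Pgls encodes 6-phosphogluconolactonase, which opens the lactone that G6pdx's enzyme makes and hands it to that of Pgd. It stood at 94.3, 85.9, 83.9 and 91.9 CPM in 6 °C mice 1 to 4, at 126.8, 156.9, 118.5 and 144.7 in 22 °C mice 1 to 4, and at 117.5, 121.6, 129.1 and 101.3 in 30 °C mice 1, 2, A and B. The 6 °C mice lay below every mouse of the other 2 groups, and the 22 °C and 30 °C mice overlapped. Pgls fell by 0.40 on the log2 scale at 6 °C against 30 °C (SE 0.10, adjusted p = 0.00362) and fell by 0.62 at 6 °C against 22 °C (SE 0.10, adjusted p = 5.24e-04, both edgeR). At 22 °C against 30 °C its log2 fold change of 0.22 (SE 0.10) did not pass (adjusted p = 0.0828). That comparison passed without 22 °C mouse 3 (0.27, adjusted p = 0.0346) and by DESeq2 (0.25, adjusted p = 0.0489), and its value turned to -0.04 when scaled by total counts alone. Of the exon bases of Pgls, 20.6% lie under Fam129c on the same strand, a gene with 1.75 ± 0.771 CPM at 6 °C, 2.35 ± 1.35 at 22 °C and 3.16 ± 0.586 at 30 °C (SD, n = 4 each), far below Pgls.

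The promoters of the 4 genes that rose most and of Pgls are shown because these genes are steps of 1 pathway whose transcripts moved together in the cold, with Pgls as the exception. Each window runs 5′ to 3′ from 250 bases before to 50 bases after the RefSeq start of the gene in GRCm38.p6. The windows lie at chrX:74428831-74429130 (minus strand), chr4:149166656-149166955 (minus strand), chr14:30548881-30549180 (plus strand), chr7:141391910-141392209 (plus strand) and chr8:71591934-71592233 (plus strand). Capitals mark matches on either strand to 5 letter patterns: the E-box CACGTG, the antioxidant response element core TGACNNNGC, the sterol response element core TCACNCCAC, the GC box GGGCGG and the CCAAT box CCAAT.
G6pdx promoter: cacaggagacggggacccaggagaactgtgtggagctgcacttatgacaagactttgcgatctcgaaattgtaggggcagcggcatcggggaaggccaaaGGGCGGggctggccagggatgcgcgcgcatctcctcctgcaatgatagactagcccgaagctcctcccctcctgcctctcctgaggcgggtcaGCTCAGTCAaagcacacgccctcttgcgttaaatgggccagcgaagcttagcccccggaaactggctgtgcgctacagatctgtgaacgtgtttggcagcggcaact
Pgd promoter: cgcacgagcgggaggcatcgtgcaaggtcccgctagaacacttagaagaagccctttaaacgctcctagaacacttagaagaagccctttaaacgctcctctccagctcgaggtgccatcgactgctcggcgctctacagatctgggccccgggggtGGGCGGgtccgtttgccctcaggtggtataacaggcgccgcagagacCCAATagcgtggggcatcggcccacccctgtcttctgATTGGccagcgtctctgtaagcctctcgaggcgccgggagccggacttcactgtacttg
Tkt promoter: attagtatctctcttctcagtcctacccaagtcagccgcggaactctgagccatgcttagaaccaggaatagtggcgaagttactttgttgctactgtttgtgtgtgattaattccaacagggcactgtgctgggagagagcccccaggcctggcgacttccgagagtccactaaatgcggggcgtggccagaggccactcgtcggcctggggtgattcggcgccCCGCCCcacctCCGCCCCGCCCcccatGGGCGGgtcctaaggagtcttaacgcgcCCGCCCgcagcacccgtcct
Taldo1 promoter: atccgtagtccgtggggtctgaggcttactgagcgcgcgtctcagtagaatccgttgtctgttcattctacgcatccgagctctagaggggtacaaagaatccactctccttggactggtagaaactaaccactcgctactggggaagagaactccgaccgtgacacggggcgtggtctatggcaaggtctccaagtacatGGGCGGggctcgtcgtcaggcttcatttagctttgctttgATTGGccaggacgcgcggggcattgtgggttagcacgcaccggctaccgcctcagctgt
Pgls promoter: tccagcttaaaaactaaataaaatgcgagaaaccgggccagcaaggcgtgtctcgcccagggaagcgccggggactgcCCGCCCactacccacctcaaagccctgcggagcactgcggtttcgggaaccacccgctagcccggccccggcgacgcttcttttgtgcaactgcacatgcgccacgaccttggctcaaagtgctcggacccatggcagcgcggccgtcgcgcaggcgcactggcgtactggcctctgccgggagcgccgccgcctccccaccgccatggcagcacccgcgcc
The G6pdx window holds an antioxidant response element core on the reverse strand, which reads GCTCAGTCA as printed, starting at base -57 from the start. A second window that RefSeq lists for Pgd, not printed, holds the same core as TGACATTGC at base 4. Such a match is found in 12.5% of 27025 promoter windows of the same length, 1 per gene. The windows of Pgd and Taldo1 each hold a GC box and a CCAAT box read as ATTGG at base -9, and Pgd a further CCAAT box at -46, while the Tkt window holds 5 GC box matches, of which those at -14 and -9 overlap. GC boxes occur in 35.9% and CCAAT boxes in 37.9% of the promoter windows. The printed Pgls window holds a GC box match at -172 and no other pattern. Neither the E-box, present in 7.24% of promoters, nor the sterol response element core, present in 1.22%, was matched in any of the 11 windows that RefSeq lists for the 9 genes. A match is a string of letters and not a site of binding, and a window without one says nothing about a factor.

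H6pd encodes hexose-6-phosphate dehydrogenase, which carries out the first steps of the branch inside the endoplasmic reticulum and supplies NADPH there. It stood at 241.9, 293.2, 219.2 and 307 CPM in 6 °C mice 1 to 4, at 237, 222, 274.5 and 235.2 in 22 °C mice 1 to 4, and at 194.8, 144.4, 160.2 and 139.9 in 30 °C mice 1, 2, A and B. The 2 colder groups overlapped each other and lay above the 30 °C mice. H6pd rose 1.66-fold at 6 °C against 30 °C (log2 fold change 0.73, SE 0.13, adjusted p = 3.43e-04) and 1.52-fold at 22 °C against 30 °C (0.60, SE 0.13, adjusted p = 0.00202, both edgeR). At 6 °C against 22 °C its log2 fold change was 0.13 (SE 0.13, adjusted p = 0.448). The cytosolic G6pdx changed more: its read count was 1.47 ± 0.220 times that of H6pd at 6 °C, 0.862 ± 0.0773 times at 22 °C and 0.654 ± 0.0445 times at 30 °C (SD, n = 4 each), without overlap between the temperatures.

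The interconversion of the 5-carbon sugars gave a mixed picture. Rpia, ribose-5-phosphate isomerase, makes the ribose phosphate that nucleotides are built on. It stood at 36.6, 51.7, 42.7 and 50.6 CPM in 6 °C mice 1 to 4, at 33.6, 28.0, 20.2 and 17.5 in 22 °C mice 1 to 4, and at 18.7, 19.8, 19.3 and 16.6 in 30 °C mice 1, 2, A and B. The 6 °C mice lay above both other groups, and the 22 °C mice overlapped those at 30 °C. Rpia rose 2.44-fold at 6 °C against 30 °C (log2 fold change 1.29, SE 0.18, adjusted p = 9.17e-05) and 1.83-fold at 6 °C against 22 °C (0.88, SE 0.18, adjusted p = 0.00341, both edgeR). At 22 °C against 30 °C the log2 fold change was 0.41 (SE 0.18, adjusted p = 0.0853), which passed without 22 °C mouse 4 (0.55, adjusted p = 0.0184) and by DESeq2 (0.44, adjusted p = 0.0437).

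Rpe, ribulose-5-phosphate epimerase, draws on the same substrate and makes xylulose 5-phosphate for the transketolase reactions. It stood at 87.8, 83.7, 101.9 and 91.5 CPM in 6 °C mice 1 to 4, at 94.5, 96.1, 98.6 and 83.5 in 22 °C mice 1 to 4, and at 58.3, 57.2, 51.2 and 45.2 in 30 °C mice 1, 2, A and B. The 2 colder groups overlapped and both lay above the 30 °C mice. Rpe rose 1.72-fold at 6 °C against 30 °C (log2 fold change 0.78, SE 0.09, adjusted p = 1.53e-05) and 1.76-fold at 22 °C against 30 °C (0.81, SE 0.09, adjusted p = 3.75e-05, both edgeR), and stood at -0.03 (SE 0.09, adjusted p = 0.822) at 6 °C against 22 °C. The read count of Rpia was 0.502 ± 0.10 times that of Rpe at 6 °C, 0.266 ± 0.0721 times at 22 °C and 0.353 ± 0.0249 times at 30 °C. Of the exon bases of Rpe, 17.9% lie under Kansl1l on the other strand, and since the strandedness of the counts is not given, reads there cannot be told apart. Kansl1l itself fell by 0.74 at 6 °C against 30 °C (adjusted p = 5.63e-04).

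The transferases of the non-oxidative branch had the highest levels per kilobase of the 9 genes at each temperature, while in CPM Pgd stood above Taldo1 at 6 °C. Tkt, transketolase, moves 2-carbon units between sugar phosphates. It stood at 5298, 4326, 5758 and 6448 CPM in 6 °C mice 1 to 4, at 4043, 4340, 3168 and 3294 in 22 °C mice 1 to 4, and at 2283, 1320, 1157 and 904.9 in 30 °C mice 1, 2, A and B. The 6 °C and 22 °C ranges touched, with 6 °C mouse 2 just below the highest 22 °C mouse, and all mice of both groups lay above those at 30 °C. Tkt rose 3.85-fold at 6 °C against 30 °C (log2 fold change 1.95, SE 0.25, adjusted p = 4.37e-05) and 2.62-fold at 22 °C against 30 °C (1.39, SE 0.25, adjusted p = 7.59e-04, both edgeR). By mean level it ranked 17 among all tested genes at 6 °C, 21 at 22 °C and 43 at 30 °C. The 6 °C against 22 °C value of 0.56 (SE 0.24) did not pass with all libraries (adjusted p = 0.0961). It passed without 30 °C mouse 1, which shares the estimate of the spread (0.56, adjusted p = 0.016), without the 30 °C pair A and B (0.57, adjusted p = 0.0318), in a fit of the 6 °C and 22 °C libraries alone (0.56, adjusted p = 0.0119) and by DESeq2 (0.59, adjusted p = 0.0355).

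Taldo1, transaldolase, moves 3-carbon units between sugar phosphates. It stood at 965.9, 924.3, 980.3 and 1045 CPM in 6 °C mice 1 to 4, at 816, 814, 746.7 and 739 in 22 °C mice 1 to 4, and at 346.8, 290.9, 299.1 and 260.5 in 30 °C mice 1, 2, A and B. The temperatures did not overlap, and the spread within each was small. Taldo1 rose 3.27-fold at 6 °C against 30 °C (log2 fold change 1.71, SE 0.09, adjusted p = 4.87e-08), 2.6-fold at 22 °C against 30 °C (1.38, SE 0.09, adjusted p = 1.92e-06) and 1.26-fold at 6 °C against 22 °C (0.33, SE 0.09, adjusted p = 0.0135, each edgeR). The read count of Tkt was 5.55 ± 0.646 times that of Taldo1 at 6 °C, 4.75 ± 0.491 at 22 °C and 4.62 ± 1.38 at 30 °C, with overlapping ranges. A Taldo1 transcript shares 10.9% of its 50-base words with the transcript of Gm17823, which holds 0 counts here, and how reads of the shared stretch were counted is not given.

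Idh1 encodes the cytosolic and peroxisomal isocitrate dehydrogenase that makes NADPH from isocitrate outside the pentose phosphate pathway. It stood at 337.6, 348.3, 365.7 and 360 CPM in 6 °C mice 1 to 4, at 385.4, 343.3, 343.3 and 291.1 in 22 °C mice 1 to 4, and at 223.1, 205, 198.9 and 183 in 30 °C mice 1, 2, A and B. The 6 °C values fell within the range of the 22 °C values, and all 30 °C mice lay below both. Idh1 rose 1.74-fold at 6 °C against 30 °C (log2 fold change 0.80, SE 0.09, adjusted p = 9.75e-06) and 1.68-fold at 22 °C against 30 °C (0.75, SE 0.09, adjusted p = 5.04e-05, both edgeR), and stood at 0.05 (SE 0.09, adjusted p = 0.69) at 6 °C against 22 °C.

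**Figure D2:**
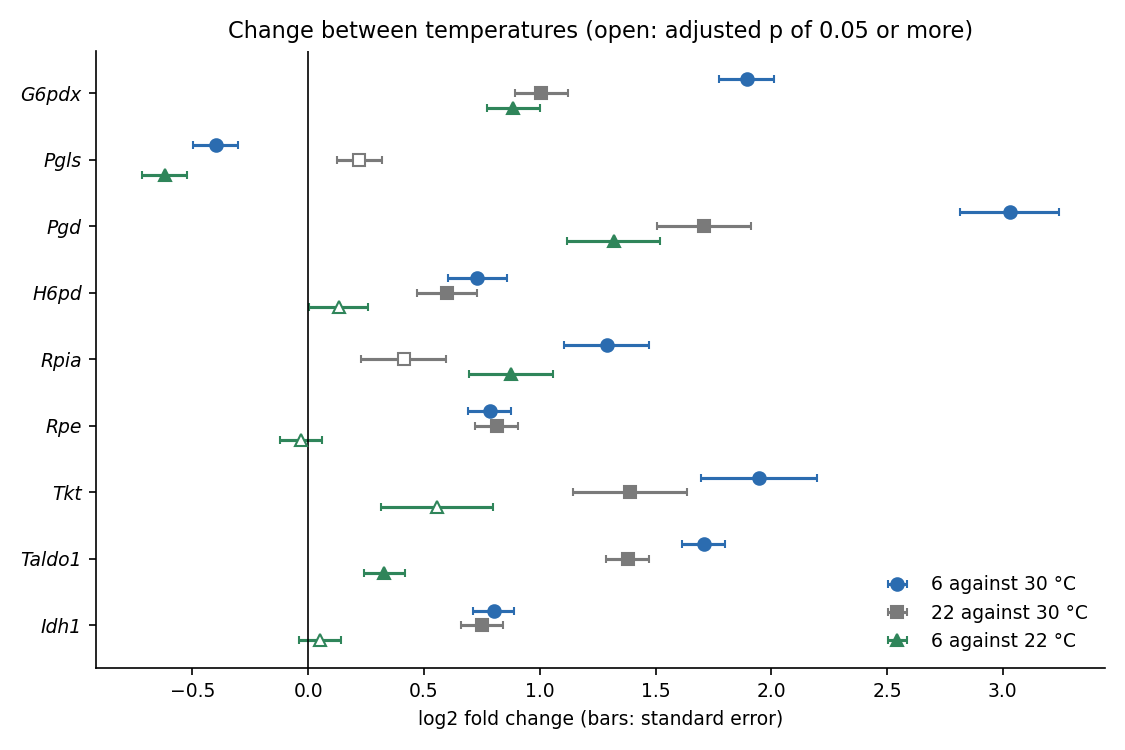
Log2 fold change (x axis) with its standard error for each of the 9 genes at 6 against 30 °C (circles), 22 against 30 °C (squares) and 6 against 22 °C (triangles), with open symbols where the adjusted p was 0.05 or more. Pgd lies farthest to the right at 3.03 for 6 against 30 °C, and for Rpe, Idh1 and H6pd the value at 6 against 22 °C lies between -0.03 and 0.13.

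Where along the temperature range each gene changed was examined gene by gene, and the genes were not tested against each other. The 2 steps span unequal ranges of temperature, and the values are not per degree. A contrast of the 2 steps, the log2 fold change at 6 °C against 22 °C minus that at 22 °C against 30 °C, was negative and passed for 4 of the 9 genes and positive for 0, beside 15.0% of all tested genes that passed as negative and 14.3% as positive. It was -1.05 for Taldo1 (SE 0.15, adjusted p = 6.33e-04), -0.85 for Rpe (SE 0.16, adjusted p = 0.00222) and -0.70 for Idh1 (SE 0.15, adjusted p = 0.00478; edgeR), which for these 3 genes means a smaller step between 22 and 6 °C than between 30 and 22 °C. For Pgls it was -0.84 (SE 0.17, adjusted p = 0.00291), where the step between 22 and 6 °C was a fall. For G6pdx and Pgd the contrast was -0.12 (SE 0.20, adjusted p = 0.687) and -0.39 (SE 0.34, adjusted p = 0.418), and for Rpia 0.46 (SE 0.32, adjusted p = 0.299). For H6pd and Tkt it was -0.47 (adjusted p = 0.124) and -0.83 (adjusted p = 0.151), and both passed without 30 °C mouse 1 (-0.58, adjusted p = 0.0401, and -1.16, adjusted p = 0.00711).

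Comparing genes with each other requires values per length, given here as CPM per kilobase of merged exon. At 6 °C the order was Tkt at 742 ± 121, Taldo1 at 450.9 ± 23.0, Pgd at 199.6 ± 34.4, Idh1 at 127.4 ± 4.52, G6pdx at 125.3 ± 15.1, H6pd at 50.7 ± 7.95, Rpe at 29.3 ± 2.51, Pgls at 23.6 ± 1.30 and Rpia at 8.47 ± 1.33 CPM per kilobase (SD, n = 4 each). Of the neighbours in that order, the ranges of Idh1 and G6pdx overlapped and the others did not. Pgd held place 3 of the 9 genes.

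At 22 °C, Tkt at 504.6 ± 77.5 CPM per kilobase and Taldo1 at 358.8 ± 19.2 again led, followed by Idh1 at 123 ± 13.9, Pgd at 80.0 ± 20.9 and G6pdx at 67.8 ± 9.08. Among these the ranges of Idh1 and Pgd touched and those of Pgd and G6pdx overlapped. H6pd at 46.2 ± 4.31, Pgls at 36.3 ± 4.60, Rpe at 29.9 ± 2.13 and Rpia at 4.63 ± 1.37 CPM per kilobase followed, with overlap between Pgls and Rpe only.

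At 30 °C Pgd, at 24.5 ± 5.45 CPM per kilobase, stood only in place 7 of the 9 genes. Above it came Tkt at 192.6 ± 81.9 and Taldo1 at 137.9 ± 16.5, which overlapped, Idh1 at 73.1 ± 5.98, and then G6pdx at 33.7 ± 3.39, Pgls at 31.1 ± 3.12 and H6pd at 30.5 ± 4.75, whose ranges overlapped each other and that of Pgd. Rpe at 17.0 ± 1.95 and Rpia at 3.47 ± 0.260 CPM per kilobase came last. With the length of the longest transcript in place of merged exons, Pgd stood in place 3 at 6 °C, 4 at 22 °C and 5 at 30 °C, so the order of the genes near it at 30 °C depends on the length used.

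**Figure D3:**
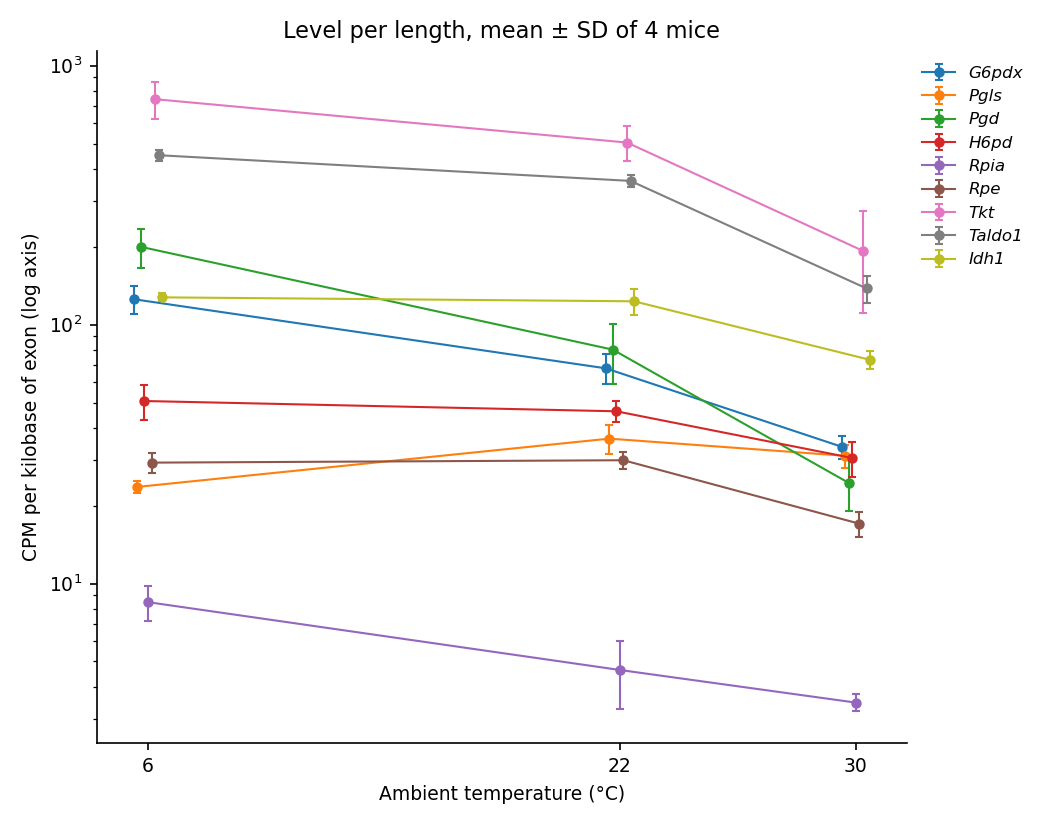
CPM per kilobase of merged exon (y axis, log scale) of the 9 genes against ambient temperature (x axis), as mean and SD of 4 mice, with points shifted sideways for legibility. Pgd stands at 199.6 at 6 °C, above Idh1 and G6pdx, and at 24.5 at 30 °C, below both, while Pgls has its lowest value, 23.6, at 6 °C.

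Ratios of read counts within a library do not depend on how libraries are scaled, and they show how genes shifted against each other with temperature. They are not corrected for gene length, so a ratio at 1 temperature does not rank the 2 genes. The count of Pgd over that of Pgls was 14.5 ± 2.42 at 6 °C, 3.84 ± 1.23 at 22 °C and 1.35 ± 0.306 at 30 °C (SD, n = 4 each), with no overlap between temperatures. Pgd over G6pdx, the 2 dehydrogenases of the branch, was 3.13 to 3.57 at 6 °C, 2.01 to 3.04 at 22 °C and 1.33 to 1.82 at 30 °C, again without overlap. The cytosolic Idh1 over its mitochondrial counterpart Idh2 was 1.14 ± 0.0607 at 6 °C, 0.861 ± 0.216 at 22 °C and 0.372 ± 0.0421 at 30 °C, and here the 6 °C and 22 °C ranges overlapped while the 30 °C mice lay below both.

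**Figure D4:**
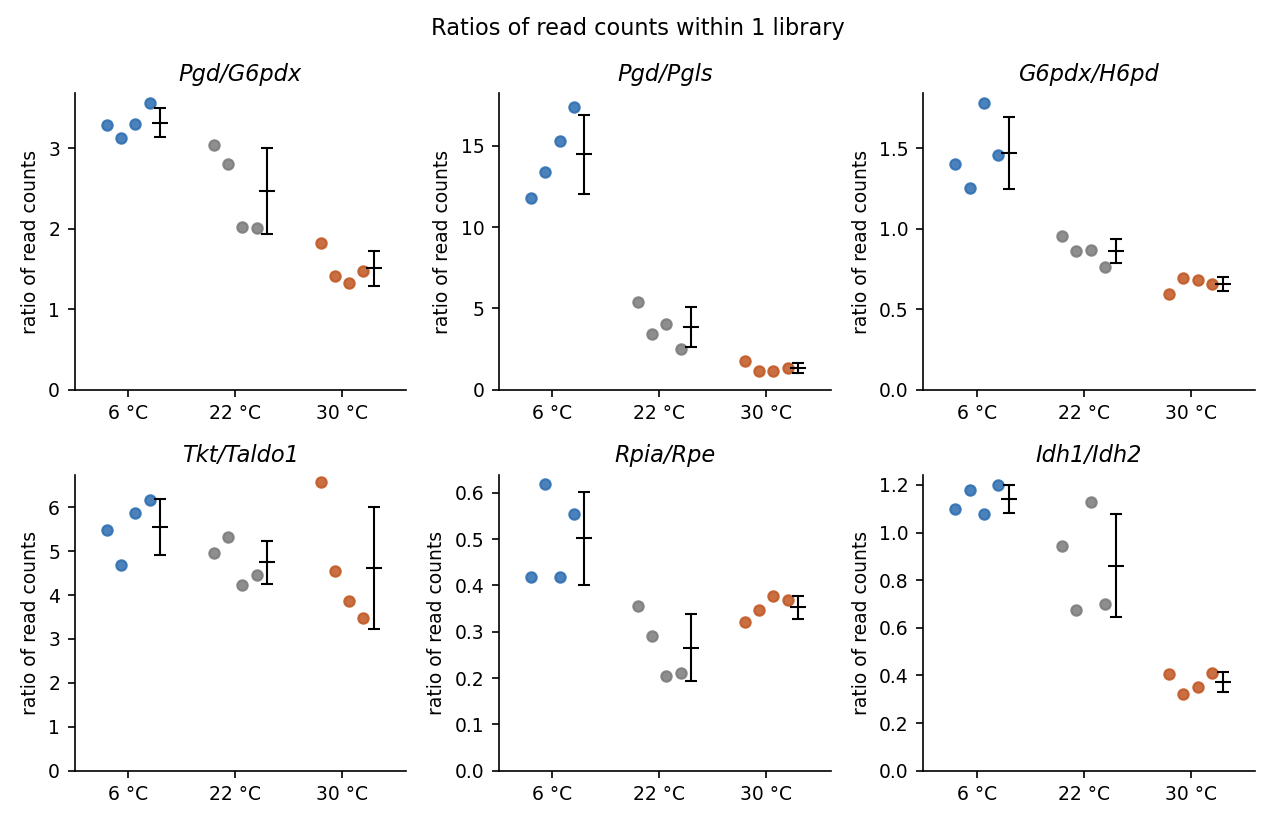
Ratio of the raw read counts of 2 genes within the same library (y axes, starting at 0) for 6 pairs of genes, by mouse (points) with mean and SD, at 6, 22 and 30 °C. Pgd over Pgls separates the temperatures most, with 11.8 to 17.4 at 6 °C and 1.12 to 1.79 at 30 °C, and Tkt over Taldo1 overlaps between them.

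Of the copies and look-alikes of these genes, G6pd2, Tktl1 and Tktl2 were close to absent. Tktl1 and Tktl2, which encode transketolase-like proteins, averaged 0 CPM each at 6 °C, 0.00295 and 0.00884 at 22 °C, and 0.0522 and 0 at 30 °C. G6pd2, an intronless copy of G6pdx, held 59 counts over the 12 libraries, and its mean was 0.234 CPM at 6 °C, 0.167 at 22 °C and 0.0888 at 30 °C. Of the 50-base words of the longest G6pdx transcript, 7.65% also occur in G6pd2, so a share of G6pdx reads could have been lost or assigned to the copy. A further 13.6% of the exon bases of G6pdx lie under Ikbkg on the other strand, a gene that stood at 65.0 ± 3.72 CPM at 6 °C, 54.5 ± 8.22 at 22 °C and 46.8 ± 4.27 at 30 °C.

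The genes around the pathway were examined in lists drawn up from textbook roles, given as counts beside the 25.3% higher and 31.5% lower over all tested genes at 6 °C against 30 °C. Among 13 genes of pentose and ribose phosphate side reactions, 9 were tested, 3 rose and 4 fell, with a median log2 fold change of -0.14. Rbks, ribokinase, rose by 1.27 (SE 0.15) and Tigar, which lowers the level of a glycolytic activator and so favours the pentose pathway, by 1.26 (SE 0.18). Prps1, the synthetase that activates ribose 5-phosphate for nucleotide synthesis, fell by 1.07 (SE 0.19, adjusted p = 6.01e-04, edgeR), and Prpsap1, a protein that associates with it, fell by 0.56 (SE 0.07).

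Other sources of NADPH and of NADP were divided. Of 10 such genes 4 rose and 4 fell, with a median of -0.07. Me1, cytosolic malic enzyme, stood at 845.9, 838, 1038 and 1392 CPM in 6 °C mice 1 to 4, at 574.1, 413.7, 642.8 and 397.7 in 22 °C mice 1 to 4, and at 199.8, 76.7, 49.6 and 51.6 in 30 °C mice 1, 2, A and B, so that the temperatures did not overlap. At 6 °C against 22 °C the log2 fold change of Me1, 1.02 (SE 0.42), did not pass (adjusted p = 0.0865, edgeR). That comparison passed without 30 °C mouse 1 (1.02, adjusted p = 0.0049, edgeR). Me1 rose 10.9-fold at 6 °C against 30 °C (log2 fold change 3.44, SE 0.46, adjusted p = 1.12e-04, edgeR), and 17.4-fold without 30 °C mouse 1, its highest mouse at that temperature (4.12, adjusted p = 1.14e-06). The NAD kinases Nadk (cytosolic) and Nadk2 (mitochondrial), which make NADP, both rose by 0.90 (SE 0.07 and 0.10). The mitochondrial Idh2 fell by 0.83 (SE 0.14, adjusted p = 2.8e-04) and Aldh1l2, a mitochondrial folate enzyme, fell by 1.39 (SE 0.26). Nnt, the proton-driven mitochondrial transhydrogenase that is known to carry a disabling deletion in C57BL/6J mice, stood at 3.20 ± 0.425 CPM at 6 °C, 3.03 ± 0.788 at 22 °C and 6.38 ± 1.41 at 30 °C (SD, n = 4 each).

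The synthetic steps that consume NADPH rose with the pathway. Of 11 such genes of fatty acid and sterol synthesis, 9 rose and 0 fell, with a median of 1.5. Fasn, fatty acid synthase, stood at 36610 ± 4942 CPM at 6 °C, 21110 ± 4430 at 22 °C and 1783 ± 1585 at 30 °C. Hsd17b12, the ketoreductase of fatty acid elongation, rose by 2.28 (SE 0.10). Fdft1, squalene synthase, did not pass, with a log2 fold change of 0.03 (adjusted p = 0.919, edgeR). Of 12 other NADPH-using reductases and oxidases 5 rose and 4 fell, with a median of -0.07. Txnrd2, mitochondrial thioredoxin reductase, rose by 0.99 (SE 0.08) and Por, which feeds cytochromes P450, by 0.71 (SE 0.08), while the biliverdin reductases Blvrb and Blvra fell by 1.10 and by 0.64 on the log2 scale.

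At the branch point with glycolysis, 9 of 12 genes rose and 2 fell, with a median of 1.71. Pfkp, a phosphofructokinase isozyme, rose by 2.44 (SE 0.10) and Aldoa, aldolase A, by 2.01 (SE 0.12), while Aldoc, aldolase C, fell by 1.29 (SE 0.24). Pfkm, the muscle phosphofructokinase, stood at -0.49 (adjusted p = 0.0495), a call lost without any 1 of 6 °C mice 1, 2 and 3, 22 °C mice 1 and 2 or 30 °C mice 1 and A (adjusted p = 0.0538 to 0.155), under RLE scaling, without a filter and in a fit of the 6 °C and 30 °C libraries alone. In the cytosolic citrate and malate route 5 of 6 genes rose and 0 fell, with a median of 1.79: Slc25a1, the mitochondrial citrate carrier, rose by 2.80 (SE 0.23) and Mdh1, cytosolic malate dehydrogenase, by 0.78 (SE 0.11).

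In the endoplasmic reticulum, where H6pd works, 2 of 5 genes rose and 0 fell, with a median of -0.14. Slc37a4, which carries glucose 6-phosphate into that compartment, stood at 24.7 ± 3.08 CPM at 6 °C, 24.9 ± 1.91 at 22 °C and 17.1 ± 2.88 at 30 °C. It rose by 0.53 at 6 °C against 30 °C (adjusted p = 0.00253), a call lost when scaled by total counts alone (0.22, adjusted p = 0.102). Hsd11b1, which uses H6pd's NADPH to regenerate active glucocorticoid, stood at 136.1 ± 15.7 CPM at 6 °C, 229.8 ± 50.8 at 22 °C and 81.7 ± 16.4 at 30 °C. It rose by 0.74 at 6 °C against 30 °C (SE 0.17, adjusted p = 0.00275) and by 1.49 at 22 °C against 30 °C (SE 0.17, adjusted p = 5.15e-05), and fell by 0.76 at 6 °C against 22 °C (SE 0.17, adjusted p = 0.00506, each edgeR). Of 11 genes of the NRF2 pathway, whose transcription factor binds antioxidant response elements, 5 rose and 0 fell, with a median of 0.30. Srxn1, sulfiredoxin, rose by 1.32 (SE 0.08) and Gclm, a subunit of the enzyme that starts glutathione synthesis, by 1.18 (SE 0.08), while Nqo1 stood at -0.44 (adjusted p = 0.13) and Nfe2l2, which encodes NRF2, at 0.18 (adjusted p = 0.127).

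**Figure D5:**
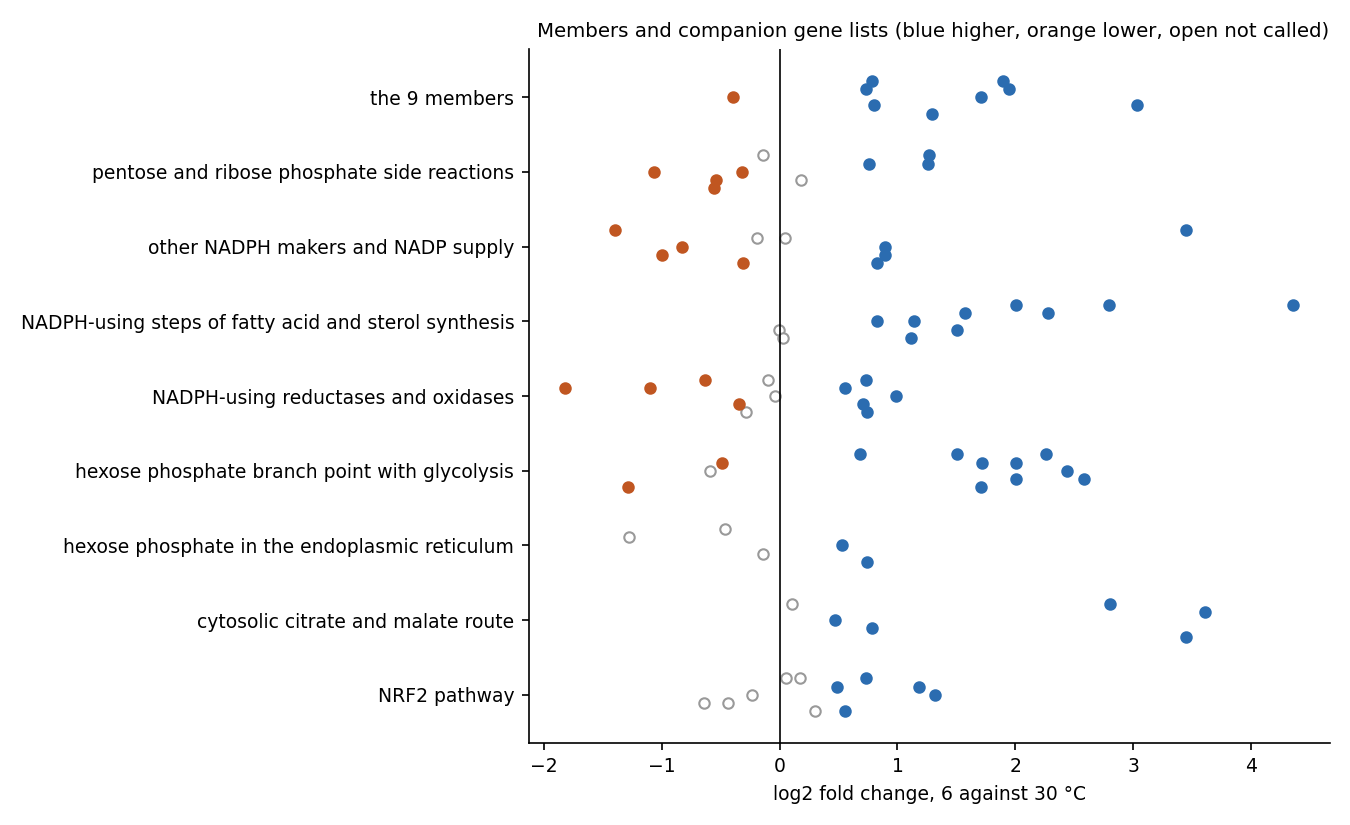
Log2 fold change at 6 against 30 °C (x axis) of every tested gene in the 9 lists, 1 point per gene, stacked for legibility, blue where it rose, orange where it fell and open where the adjusted p was 0.05 or more. Of the 9 members 8 are blue and only Pgls is orange, while the list of NADPH makers holds 4 blue and 4 orange points and runs from Aldh1l2 at -1.39 to Me1 at 3.44.

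Genes with a like pattern were found by the root mean square difference of log2 CPM over the 12 libraries, each gene centred on its own mean, among 9875 named genes with at least 5 CPM on average. Pgd had few neighbours: 1 gene lay within 0.25 log2 units, Fbp2, a fructose bisphosphatase of muscle and other tissues, at 0.208, and the next was Nsdhl, a sterol synthesis gene, at 0.266. Tkt had 8 such genes within 0.25, led by Pygl, a glycogen phosphorylase, at 0.112, and Pdk1, a pyruvate dehydrogenase kinase, at 0.208. G6pdx was nearest to Acsf2, an acyl-CoA synthetase family member, at 0.101, and to Aldoa at 0.131, and Taldo1 to Cyb5b at 0.119 and to the lactate dehydrogenase gene Ldha at 0.124. Rpia was nearest to Prkab1, a subunit of AMP-activated kinase, at 0.141, and to Mindy2 at 0.177.

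Genes with smaller changes had many neighbours within 0.25, numbering 1126 for H6pd, 1393 for Pgls, 1146 for Rpe and 1408 for Idh1, so that their nearest genes hardly stand out. The nearest were Pikfyve and Pebp1 for H6pd, R3hcc1 and Naa10 for Pgls, Mme and Lypla1 for Rpe, and Bphl and Uros for Idh1. Among the 9 genes themselves, Rpe and Idh1 were the closest pair at 0.0881 log2 units and Pgls and Pgd the farthest at 1.44. The next closest pairs were H6pd and Idh1 (0.179), H6pd and Rpe (0.214), G6pdx and Taldo1 (0.263) and Tkt and Taldo1 (0.265).

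Within the 30 °C group, mice A and B had 1640 and 1910 CPM of macrophage markers and mice 1 and 2 had 546 and 607, and Tkt, Rpe and Idh1 were each lower in both A and B than in both 1 and 2, Tkt with 1157 and 904.9 CPM in A and B and 2283 and 1320 CPM in 1 and 2. The ranges of the other 6 genes in A and B overlapped or touched those in 1 and 2, and the part of the macrophage markers in this was not tested. Without mice A and B, 8 of the 9 genes rose and 1 fell at 6 °C against 30 °C, with log2 fold changes of 2.89 for Pgd, 1.86 for G6pdx, 1.61 for Tkt and -0.41 for Pgls. Scaled by total counts alone, which moved the median of all genes by -0.32 in that comparison, the 8 rises and the fall of Pgls were called as well. The log2 fold changes were then lower by about that shift, 0.42 for H6pd, 0.47 for Rpe and 0.49 for Idh1, and -0.71 for Pgls.

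In the GRCm38 build, G6pdx lies on chromosome X from 74409483 to 74429194, Pgd on chromosome 4 from 149149991 to 149166771, H6pd on chromosome 4 from 149979475 to 150009023, Pgls on chromosome 8 from 71592176 to 71601092 and Rpia on chromosome 6 from 70765720 to 70792232. Rpe lies on chromosome 1 from 66700831 to 66719805, Idh1 on chromosome 1 from 65158616 to 65186500, Tkt on chromosome 14 from 30548359 to 30574720 and Taldo1 on chromosome 7 from 141392199 to 141402968. All 9 are annotated as protein-coding.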

How the data were processed

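RNA of 12 brown fat depots was sequenced, 1 library per mouse per the labels. The authors deposited raw read counts per Ensembl gene without normalisation. The submitters' processing notes name, with no roles, the tools STAR 2.4.2a, FastQC 0.10.1 and edgeR 3.14.0 and the genome builds mm10 and GRCm38. Counter, annotation release and strandedness: not given in the sources used here. Columns were matched to mice by title for 10 libraries and to 30 °C by letter for the other 2. GENCODE M21 matched 96.6% of identifiers and gave names, positions and exon lengths.

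Counts were filtered by filterByExpr, scaled by TMM and fitted with glmQLFit (robust) to 1 factor of 3 temperatures in edgeR 4.0.16 (R 4.3.3), and contrasts were tested two-sided with glmQLFTest. The Benjamini-Hochberg adjustment ran over the 14870 genes tested, and "rose", "fell" and "passed" mean an adjusted p under 0.05. Standard errors were derived from each contrast's log2 value and its F statistic. Centred log2 CPM used a prior count of 2. Pairs of libraries of 1 temperature differed by at least 22.9 chi-square units per degree of freedom, so none was counted as a copy. At the smallest total, 3 counts correspond to 0.164 CPM.

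The members, gene lists and tests were chosen with earlier results of these data known. Named are the members, from each list the 2 called genes of smallest p in each direction at 6 against 30 °C plus a fixed panel, and the 2 genes nearest each member. Fdft1, Nqo1, Nfe2l2 and Acly were named after their values were seen. Promoter sequences are RefSeq's (GRCm38.p6), found for all 9 genes. Some genes that the rule names are not reported here. The fit was tested on simulated counts. Alternatives were other scalings and filters, DESeq2 1.42.0, limma 3.58.1 (voom), a replicate block, leaving out libraries, fits of 2 groups and a threshold of 0.01.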

Additional observations from a re-analysis of the deposited data

Results flagged for a closer look

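Of 27 sets of 4 mice (9 genes at 3 temperatures), 1 held a mouse far from the others by Dixon's criterion, where chance flags about 1 in 20. Pgd stood at 210.1 CPM in 30 °C mouse 1, with the next mouse at 144.6, a gap of 0.87 of the group's range. Me1, Fasn and Acly were also highest in that mouse among the 30 °C mice, at 199.8, 4128 and 1053 CPM. So were Tkt at 2283, Taldo1 at 346.8, Idh1 at 223.1, H6pd at 194.8, G6pdx at 115.3 and Rpe at 58.3 CPM. Pgls was highest in mouse A and Rpia in mouse 2, at 129.1 and 19.8 CPM. Reads of the 9 genes made up 0.401% of the mouse 1 library, against 0.230 to 0.265% in the other 30 °C mice. The summed skeletal muscle markers of mouse 1 were the highest of the 12 libraries, at 4830 CPM. The part of these markers in the values was not tested.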

How the results depend on the processing

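Of the recomputed values of the 9 genes, 843 kept their side of the threshold, 2 lost a call and 10 gained one. Called values kept their direction. Some values that were not called turned in sign, such as Pgls at 22 against 30 °C, from 0.22 to -0.04 with total counts only. At 6 against 30 °C all 9 calls held in the 24 alternatives run. The lost calls were H6pd at 22 against 30 °C under the replicate block (0.49, adjusted p = 0.108) and Taldo1 at 6 against 22 °C at a threshold of 0.01. Mouse numbers recur across temperatures, and the numbers in the library titles differ from them for some mice. Deviations of libraries of the same number correlated between -0.152 and 0.23, and 1 of 8 libraries at 6 and 22 °C matched its own number best. With so few libraries these values cannot decide whether mice of 1 number share more than the number. With the replicate block, in the 10 matched libraries, 3245 genes were called at 22 against 30 °C and 2468 for the contrast of steps, against 4454 and 3376 in the same 10 libraries without the block and 6634 and 4353 in all 12. At a threshold of 0.01, 2803 genes were called at 6 against 22 °C and 2236 for the steps, against 5091 and 4353. With total counts only, Mthfd1 (-0.26), Slc25a11 (-0.21) and Gclc (-0.26) at 6 against 30 °C, and Glud1 (-0.22), Gsr (-0.0107), Txnrd1 (-0.0594) and Tpi1 (-8e-04) at 22 against 30 °C, turned in sign. Slc37a2 at 6 against 30 °C turned to 1.00 with the block, and stood at 0.71 in the same 10 libraries without it. Both of these fits leave out 30 °C mice A and B, its highest libraries. The cause of these changes was not tested. Levels per kilobase changed with the exon length used. Without 22 °C mouse 3 the nearest gene of H6pd, Pgls and Rpe was no longer among the nearest 2. Members hold 2214 counts or more per temperature, so depth does not limit their levels, while Tktl1 and Tktl2 are at the floor.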

Other observations

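Some genes of the lists stood apart at 22 °C and not along the order of temperature. Hmox1, heme oxygenase, averaged 74.0 ± 15.8 CPM at 6 °C, 6.97 ± 1.49 at 22 °C and 60.2 ± 44.5 at 30 °C (SD, n = 4 each), and its contrast of steps was 6.47 (adjusted p = 0.0021, edgeR). The 30 °C mice were split, with 18.19 and 25.24 CPM of Hmox1 in mice 1 and 2 and 98.59 and 98.64 in A and B. Hk3, described next, was split the same way, with 4.1 and 5.27 CPM in mice 1 and 2 and 17.35 and 19.22 in A and B. Hk3, a hexokinase of white blood cells, averaged 7.62 ± 3.52, 1.07 ± 0.165 and 11.5 ± 7.90 CPM in the same order of temperatures, and Slc37a2, a phosphate-linked sugar transporter of macrophages, 10.5 ± 3.94, 2.13 ± 0.697 and 25.4 ± 22.1 CPM, where mice A and B had 48.2 and 40.6 CPM and mice 1 and 2 had 5.69 and 7.32. The summed macrophage markers were also lowest at 22 °C, and their part in these values was not tested. These genes were singled out after their values were seen.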
